A study of Mus musculus with 6 samples.

Results

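The voltage-gated sodium and calcium channel genes were described in the distal part of the mouse left sciatic nerve, in 3 female and 3 male RNA-seq libraries. Members were the genes with protein_coding transcripts whose symbols follow the Scn, Cacna1, Cacna2d, Cacnb and Cacng naming patterns. The rule used names only, and found 40 genes of 54309 in the files. They comprise 10 sodium channel alpha subunits, 4 sodium channel beta subunits, 10 calcium channel alpha1 subunits, 4 alpha2delta subunits, 4 calcium channel beta subunits and 8 gamma subunits, with 188 protein_coding transcripts in all.

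Both groups, female and male, were C57BL/6 mice of 6 to 8 weeks, operated on the left sciatic nerve and sampled 24 h later. The labels name no engineered allele or drug, and each library pooled nerves of 2 animals. The labels disagree on the surgery: the treatment field and the design statement give axotomy, whereas the treatment protocol describes a sham operation that exposed the nerve and left it uncut. No uninjured or otherwise operated library was analysed here, so every result below is a level in these nerves or a difference between sexes, and no result is a response to surgery. The libraries held 55272138 to 77610593 estimated reads, of which the 40 genes took 0.027% to 0.0384%.

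Voltage-gated sodium channels carry the rising phase of the action potential through one large alpha subunit, which sets the pore, and smaller beta subunits, which adjust gating and adhere to other membrane proteins. Voltage-gated calcium channels are built from a pore-forming alpha1 subunit with an intracellular beta subunit and an extracellular alpha2delta subunit, and in skeletal muscle also a gamma subunit. A sciatic nerve segment holds axons without their cell bodies, together with Schwann cells, fibroblasts, perineurial cells, vessels and immune cells, so most of its RNA comes from cells that do not fire conventional action potentials.

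One sequence difference recurs in the results on Cacna1s, the alpha1 subunit of the skeletal muscle L-type channel CaV1.1. Its protein_coding transcripts differ in exon 29, which is 57 bases long and lies within the coding sequence at chr1:136104570-136104626 on the plus strand of GRCm38 (GENCODE M21 annotation). Skipping this exon gives the form known from embryonic muscle. The exon is shown in capitals between the last 20 bases of the preceding exon and the first 20 bases of the following one, and then the junction of the transcript that lacks it.
Cacna1s-204, exon 29 included: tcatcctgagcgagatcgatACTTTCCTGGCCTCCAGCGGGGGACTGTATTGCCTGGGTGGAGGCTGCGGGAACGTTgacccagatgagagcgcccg
Cacna1s-202, exon 29 skipped: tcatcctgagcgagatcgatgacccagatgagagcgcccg

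The promoters of 3 skeletal muscle members are shown because the RNA of these genes varied together across the libraries, as described below. Each window is the 250 bases before the gene's start (RefSeq, GRCm38.p6, which lists a promoter for 30 of the 40 genes), with every match to CANNTG, the E-box bound by myogenic factors such as MyoD, in capitals.
Cacna1s promoter, chr1:136052561-136052810, plus strand: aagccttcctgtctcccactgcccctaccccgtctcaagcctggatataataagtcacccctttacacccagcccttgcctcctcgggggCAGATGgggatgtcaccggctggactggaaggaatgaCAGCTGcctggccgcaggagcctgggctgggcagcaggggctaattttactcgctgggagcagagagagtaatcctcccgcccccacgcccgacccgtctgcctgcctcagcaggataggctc
Cacng6 promoter, chr7:3424412-3424661, plus strand: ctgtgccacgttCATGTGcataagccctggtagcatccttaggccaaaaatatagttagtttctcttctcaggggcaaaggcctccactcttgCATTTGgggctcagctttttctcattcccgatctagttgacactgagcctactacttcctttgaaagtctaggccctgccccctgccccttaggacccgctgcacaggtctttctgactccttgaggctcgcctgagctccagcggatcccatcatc
Scn4a promoter, chr11:106349391-106349640, minus strand: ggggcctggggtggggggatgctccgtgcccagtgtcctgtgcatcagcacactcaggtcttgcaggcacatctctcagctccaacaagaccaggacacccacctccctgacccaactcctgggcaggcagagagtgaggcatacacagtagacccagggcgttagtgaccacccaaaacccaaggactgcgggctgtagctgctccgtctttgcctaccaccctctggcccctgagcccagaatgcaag
The Cacna1s window held 2 matches to CANNTG, of which 1 was also CAGCTG, the Cacng6 window held 2 and the Scn4a window held 0. Both motifs read the same on either strand as patterns, and CAGCTG is 1 of the forms of CANNTG. Over 32851 promoter windows of the same length, 66.2% held CANNTG and 13.0% held CAGCTG. The window of Scn7a, which is not a muscle member, held 1 match to CANNTG that was also CAGCTG. The 2 windows of Cacnb1 held 0 and 1 matches to CANNTG. A search for the MEF2 motif found 0 matches in all of these windows, and 2.9% of the 32851 windows held it. A match is a string of letters and not evidence of binding.

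Levels were compared between genes as TPM, a relative transcript abundance that sums to a fixed total per library and corrects for transcript length, summed over a gene's protein_coding transcripts. Of the 40 genes, 3 had a mean of at least 10 TPM over the 6 libraries, 11 lay between 1 and 10 TPM, 12 between 0.1 and 1 TPM and 14 under 0.1 TPM. At least 1 read was assigned in all 6 libraries for 36 genes. Scn7a, which encodes the sodium-sensing channel Nax, stood at the top with 55.7 ± 12.3 TPM (SD, n = 6). Among the other genes described, Cacnb3, Scn3b and Cacna2d1 had the highest levels, with 10.7 ± 1.34, 5.88 ± 1.21 and 5.05 ± 0.77 TPM (SD, n = 6 each). The lowest library of Scn7a (38.5 TPM) exceeded the highest of Cacnb3 (12.8 TPM), and the lowest of Cacnb3 (9.48 TPM) exceeded the highest of Scn3b (7.36 TPM). The next genes overlapped in their libraries: Scn3b spanned 4.37 to 7.36 TPM, Cacna2d1 4.24 to 6.47 TPM and Cacna1a 2.33 to 5.03 TPM.

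**Figure D1:**
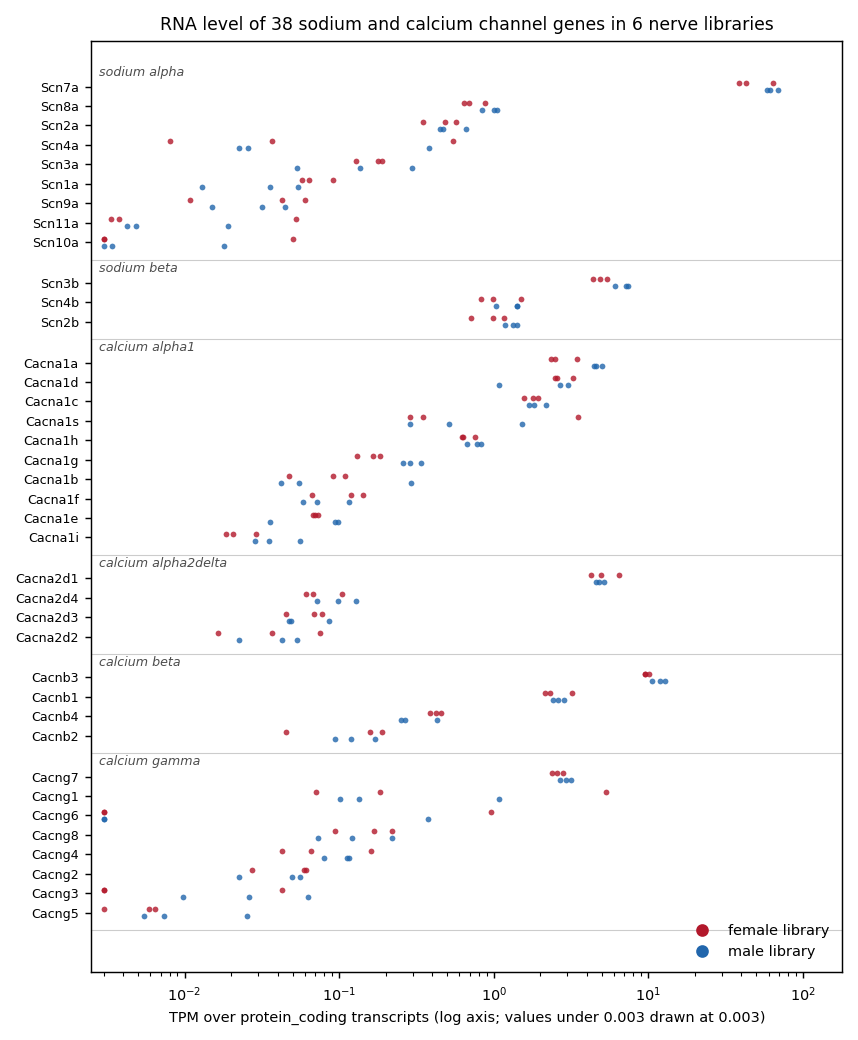
RNA level of 38 of the 40 genes in every library, in TPM on a log axis, grouped by subunit class and ordered by mean level within it; red points are female libraries, drawn above blue points for male libraries. Scn7a lies between 38.5 and 68.8 TPM in all 6 libraries, and Scn4a, Cacna1s, Cacng1 and Cacng6 spread widely, with female 2 and male 1 far above the rest.

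The female-to-male comparison was made on estimated reads per gene with edgeR's quasi-likelihood test and Benjamini-Hochberg adjustment over all 18916 genes tested, with positive log2 fold changes higher in female. Levels given per library for this comparison are CPM, read counts relative to library size, scaled by TMM, which are not corrected for gene length and compare 1 gene between libraries. Of the 40 channel genes, 33 passed the filter on low counts and 7 did not (Cacng1, Cacng3, Cacng5, Cacng6, Cacng8, Scn10a and Scn11a). No channel gene passed an adjusted p of 0.05 in edgeR, where 0.106% of all genes tested were called (20 genes: 3 higher in female, and 17, or 0.0899%, lower in female), and the lowest adjusted p among the members was 0.1425 for Scn3b. At an unadjusted p under 0.05, 6 of the 33 had a difference, which is 18.2% of those tested, against 13.7% of all genes tested. All 6 were lower in female, as were 8.5% of all genes tested. The log2 fold changes were below 0 for 18 genes and above 0 for 15, with a median of -0.08 for the channel genes and 0.01 for all genes tested; 47.2% of all genes tested were below 0. Limma-voom and limma on log2(TPM + 1) called 0 channel genes, whereas DESeq2 called 4, all lower in female (Cacna1a, Cacna1g, Scn3b and Scn8a), in a setting where it called 4.13% of all genes tested and 3.04% as lower in female. Without female 3, edgeR called 2 channel genes, both lower in female (Cacna1a and Scn7a), and 0.769% of all genes tested (0.717% as lower in female). The female and male library values of 6 channel genes did not overlap with female lower (18.2% of those tested, against 11.7% of all genes tested), and those of 1 gene did not overlap with female higher (3.0% against 8.94%). In either direction, 20.7% of all genes tested did not overlap.

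**Figure D2:**
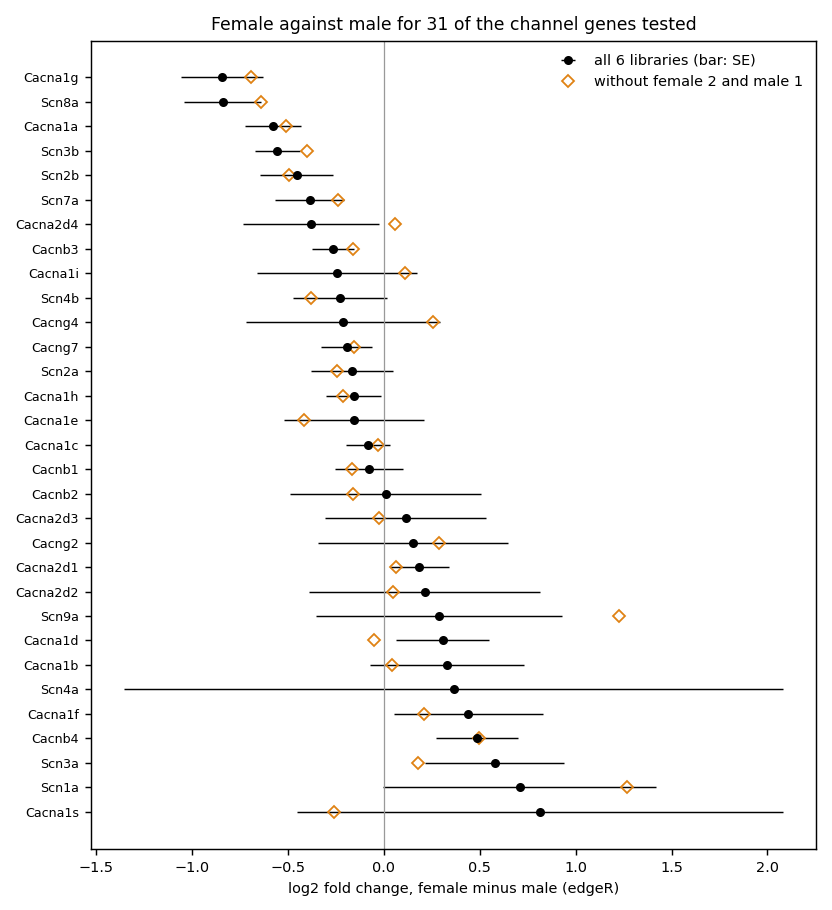
Log2 fold change, female minus male, of 31 of the 33 channel genes tested, ordered from lowest to highest; black points with bars are the edgeR estimate and its SE over all 6 libraries, and open diamonds are the estimate without female 2 and male 1 (Scn4a did not pass the filter there and has no diamond). The widest bars belong to Scn4a and Cacna1s, and Scn8a, Cacna1g, Cacna1a, Scn3b and Scn2b lie below 0 in both estimates.

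Among the sodium channel alpha subunits, 1 gene took nearly all of the RNA: Scn7a made up 93.7% to 97.2% of the class's summed TPM in each library. Scn7a had 141, 145 and 224 CPM in female libraries, against 235, 208 and 225 CPM in male libraries. Female 1 and female 2 lay below all male libraries and female 3 lay among them, so the groups overlapped. The log2 fold change was -0.39 ± 0.18 (SE), with an adjusted p of 0.40 (edgeR). Without female 3 it was -0.63 (adjusted p = 0.0403, edgeR). All reads of Scn7a came from 1 protein_coding transcript, Scn7a-201.

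Scn8a, which encodes NaV1.6, the main sodium channel of mature nodes of Ranvier, was the second most abundant alpha subunit at 0.85 ± 0.16 TPM (SD, n = 6). Scn8a had 3.12, 2.24 and 3.88 CPM in female libraries, against 5.58, 5.26 and 5.71 CPM in male libraries. Every female library lay below every male library, with a log2 fold change of -0.84 ± 0.20 (SE) and an adjusted p of 0.165 in edgeR and 0.0056 in DESeq2. In TPM the groups overlapped, with 0.641, 0.687 and 0.880 TPM in female libraries against 0.999, 0.834 and 1.06 TPM in male libraries. Limma on log2(TPM + 1), a scale that understates changes of genes at this level, gave -0.18. With an offset for effective transcript length, edgeR gave a log2 fold change of -0.39 (adjusted p = 0.396). The short transcript Scn8a-202 (1072 bases) took 38.8%, 54.0% and 32.6% of the gene's TPM in female libraries, against 27.1%, 21.1% and 25.2% in male libraries, on 7.0 to 16.6 reads a library. Reads also moved between the long transcripts Scn8a-205 and Scn8a-201 (11232 and 11293 bases): Scn8a-205 took 0, 118.3 and 208.6 reads in female libraries and 258.4, 0 and 295.6 reads in male libraries, whereas Scn8a-201 took 215.8, 0 and 0 reads in female libraries and 84.1, 308.8 and 0 reads in male libraries. Such splits are Salmon's estimates between near-identical transcripts, and the sum of reads over a gene does not depend on them.

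Scn2a, which encodes NaV1.2, had 1.83, 2.48 and 2.89 CPM in female libraries, against 2.48, 2.44 and 3.18 CPM in male libraries. The groups overlapped (log2 fold change -0.17 ± 0.21, SE; adjusted p = 0.775, edgeR). Scn3a and Scn1a are also neuronal alpha subunits of the same chromosome 2 cluster, and had means of 0.16 and 0.05 TPM. Their log2 fold changes were 0.58 and 0.71, with adjusted p of 0.535 and 0.706 (edgeR). The cluster lies in the order Scn3a, Scn2a, Scn1a, Scn9a, Scn7a in the annotation, so neighbouring genes spanned 0.0343 TPM for Scn9a to 55.7 TPM for Scn7a.

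Apart from Scn8a, described above, the members known from sensory axons were close to the limit of detection. Scn9a encodes NaV1.7, a threshold channel of nociceptors, and had 25, 4 and 18 reads in female libraries, against 20, 5 and 9 reads in male libraries. Scn10a encodes NaV1.8 of nociceptors and had 18, 0 and 0 reads in female libraries, against 7, 1 and 0 reads in male libraries. Scn11a encodes NaV1.9 of the same cells and had 15, 1 and 1 reads in female libraries, against 6, 1 and 1 reads in male libraries. Female 1 and male 1 held the highest read number of all 3 genes in their group. At 0 reads, a level of up to 3 reads is allowed, which is 0.0437 CPM before TMM scaling in female 2, 0.0399 CPM in female 3 and 0.0543 CPM in male 3; intervals and limits cover counting error only. The summed level of 10 neuronal markers was 80.2 to 108.9 CPM in female libraries and 87.9 to 108.3 CPM in male libraries. Syt1 and Slc17a6 were each at 0 in at least 1 library.

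Of the 4 sodium channel beta subunits, 2 had female libraries that all lay below the male ones, as did 11.7% of all genes tested. Scn3b, the beta3 subunit, had 11.5, 10.5 and 12.8 CPM in female libraries, against 18.9, 15.0 and 17.3 CPM in male libraries. The groups did not overlap, and the log2 fold change of -0.56 ± 0.12 (SE) had an adjusted p of 0.1425 in edgeR and 0.0041 in DESeq2.

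Scn2b, the beta2 subunit, which is linked to the alpha subunit by a disulfide bond, had 2.18, 2.99 and 3.56 CPM in female libraries, against 3.85, 4.03 and 4.09 CPM in male libraries. The groups did not overlap, and the male libraries lay closer together than the female ones (log2 fold change -0.45 ± 0.19, SE; adjusted p = 0.354, edgeR). Scn4b, the beta4 subunit, which is also disulfide-linked, had 2.74, 4.93 and 3.28 CPM in female libraries, against 4.93, 3.40 and 4.49 CPM in male libraries. Female 2 and male 1 were the highest of their groups, and the groups overlapped (log2 fold change -0.23 ± 0.24, SE; adjusted p = 0.724, edgeR).

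**Figure D3:**
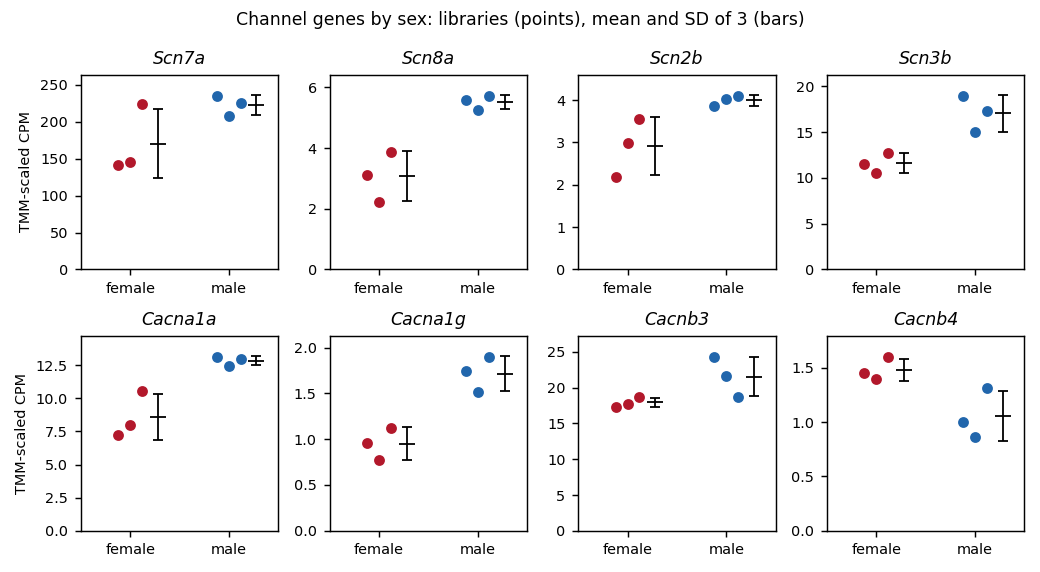
TMM-scaled CPM of Scn7a and of the 7 genes whose female and male libraries do not overlap, with female libraries left of male libraries; points are libraries, and the horizontal mark with bars is the mean and SD of 3. Scn8a, Scn2b, Scn3b, Cacna1a, Cacna1g and Cacnb3 are lower in all female libraries and Cacnb4 is higher, whereas female 3 puts Scn7a in the male range.

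The calcium channel alpha1 subunits were led by Cacna1a, which encodes the P/Q-type channel CaV2.1, at 3.72 ± 1.13 TPM, followed by Cacna1d and Cacna1c, which encode the L-type channels CaV1.3 and CaV1.2, at 2.52 ± 0.76 and 1.83 ± 0.21 TPM (SD, n = 6 each). Cacna1a had 7.20, 7.98 and 10.6 CPM in female libraries, against 13.1, 12.5 and 13.0 CPM in male libraries. Every female library lay below every male library, with the male libraries close together. The log2 fold change was -0.58 ± 0.15 (SE), with an adjusted p of 0.177 in edgeR, 0.016 in DESeq2 and 0.038 in edgeR without female 3. Cacna1a made up 20.8% to 36.7% of the alpha1 TPM in female libraries, against 40.4% to 45.3% in male libraries. That total includes the muscle gene Cacna1s, which took 29.2% of it in female 2 and 15.0% in male 1. The short transcript Cacna1a-210 (549 bases) took 30.8% to 48.0% of the TPM of Cacna1a, on 12.6 to 30.8 reads a library. This transcript had a mean of 1.47 TPM, so on the means the place of Cacna1a above Cacna1d rests on it. The place of Cacna1a above Cacna1c does not. In reads over the 6 libraries, which are not corrected for length, Cacna1c had 5788 and Cacna1a 4346.

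Cacna1g, which encodes the T-type channel CaV3.1, opening at low voltage, had 0.963, 0.770 and 1.12 CPM in female libraries, against 1.74, 1.51 and 1.89 CPM in male libraries. The groups did not overlap, and the log2 fold change of -0.84 ± 0.21 (SE) was the lowest of the 33 genes tested; its adjusted p was 0.177 in edgeR and 0.028 in DESeq2. It shrank to -0.16 under limma on log2(TPM + 1), a scale that understates changes of genes at this level. Cacna1h, the T-type channel CaV3.2, had a mean of 0.71 TPM and a log2 fold change of -0.16 ± 0.14 (SE; adjusted p = 0.675, edgeR).

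Cacna1d had 10.3, 13.5 and 11.1 CPM in female libraries, against 5.99, 10.9 and 11.3 CPM in male libraries. Male 1 stood low and the other male libraries lay among the female ones (log2 fold change 0.31 ± 0.24, SE; adjusted p = 0.636, edgeR). Cacna1c had 14.1, 12.2 and 15.0 CPM in female libraries, against 13.9, 13.7 and 16.2 CPM in male libraries. The groups overlapped throughout (log2 fold change -0.08 ± 0.11, SE; adjusted p = 0.793, edgeR). Cacna1b, Cacna1e, Cacna1f and Cacna1i, whose channels are the N-type, R-type, retinal L-type and CaV3.3 T-type, had means of 0.0312 to 0.106 TPM, log2 fold changes of -0.24 to 0.44 and adjusted p of 0.663 to 0.891 (edgeR).

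The alpha2delta subunits, extracellular proteins that raise channel number at the membrane, were represented almost wholly by Cacna2d1, the target of gabapentin, with 95.1% to 97.5% of the class's TPM. Cacna2d1 had 14.8, 19.2 and 12.7 CPM in female libraries, against 14.6, 12.4 and 14.0 CPM in male libraries. Female 2 was the highest, and the groups overlapped (log2 fold change 0.19 ± 0.15, SE; adjusted p = 0.649, edgeR). Cacna2d4, known from the retina, had 0.475, 0.276 and 0.314 CPM in female libraries, against 0.620, 0.448 and 0.309 CPM in male libraries. Cacna2d3 had 0.204, 0.174 and 0.118 CPM in female libraries, against 0.132, 0.216 and 0.109 CPM in male libraries. Both overlapped between sexes, with log2 fold changes of -0.38 for Cacna2d4 and 0.11 for Cacna2d3, and Cacna2d2 lay at 0.0412 TPM with a log2 fold change of 0.21.

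The intracellular beta subunits, which bring alpha1 subunits to the membrane, were led by Cacnb3, at 71.6% to 80.0% of the class's TPM. Cacnb3 had 17.4, 17.8 and 18.7 CPM in female libraries, against 24.2, 21.7 and 18.8 CPM in male libraries. The groups did not overlap, but the highest female library and the lowest male library differed by little (18.70 and 18.77 CPM; log2 fold change -0.27 ± 0.11, SE; adjusted p = 0.337, edgeR). Cacnb4, a neuronal beta subunit, had 1.451, 1.395 and 1.595 CPM in female libraries, against 1.002, 0.863 and 1.31 CPM in male libraries. It was the only channel gene tested whose female libraries all lay above the male ones (log2 fold change 0.49 ± 0.21, SE; adjusted p = 0.375, edgeR). Cacnb2, known from heart, had a mean of 0.13 TPM and a log2 fold change of 0.01. Cacnb1 is described with the muscle isoforms.

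Of the 8 gamma subunits, 3 passed the filter on low counts. Cacng7, a member of the family that also regulates AMPA receptors, was the most abundant at 2.76 ± 0.27 TPM (SD, n = 6). Cacng7 had 3.69, 3.40 and 3.22 CPM in female libraries, against 4.04, 3.63 and 4.11 CPM in male libraries. The groups overlapped by 1 library (log2 fold change -0.19 ± 0.13, SE; adjusted p = 0.574, edgeR). Cacng4 had 0.380, 0.102 and 0.157 CPM in female libraries, against 0.290, 0.266 and 0.182 CPM in male libraries. Cacng2, known as stargazin, had 0.204, 0.203 and 0.0915 CPM in female libraries, against 0.198, 0.166 and 0.0728 CPM in male libraries. Both overlapped between sexes (adjusted p of 0.891 for Cacng4 and 0.923 for Cacng2, edgeR). Cacng3, Cacng5 and Cacng8 had 13, 7 and 48 reads over all 6 libraries and were not tested.

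Some cell type markers were lower in female beside the female-lower members, and others were not. The 5 lists given first had sums that did not overlap between sexes. Over all genes tested, 11.7% did not overlap with female lower and 8.94% with female higher. The summed level of 12 myelinating Schwann cell markers was 13650 to 20940 CPM in female libraries, against 26820 to 36300 CPM in male libraries, and 11 of the 12 did not overlap, with female lower. The 4 general Schwann cell markers summed to 356 to 453 CPM in female libraries, against 489 to 640 CPM in male libraries, and 2 of the 4 did not overlap. The 6 fibroblast markers summed to 8459 to 8864 CPM in female libraries, against 10740 to 14710 CPM in male libraries, and 5 of the 6 did not overlap. The 6 perineurial markers summed to 678 to 828 CPM in female libraries, against 838 to 915 CPM in male libraries, and 2 of the 6 did not overlap. The 6 T and B cell markers summed to 3.70 to 3.92 CPM in female libraries, against 5.14 to 8.23 CPM in male libraries, and 4 of the 6 did not overlap. No marker of these 5 lists passed an adjusted p of 0.05 in edgeR. No defining marker of these cells was at 0 in a library. The sums of the other lists overlapped between sexes. Of the 6 non-myelinating Schwann cell markers, 2 did not overlap, with female lower. Of the 6 neutrophil markers, 2 did not overlap, with female higher. Of the 8 mural markers, 1 did not overlap, with female lower. All 6 macrophage and all 6 adipocyte markers had log2 fold changes above 0, and all overlapped. The endothelial, mast cell and neuron markers all overlapped as well. In bulk tissue, fewer cells of a type and less RNA per cell cannot be told apart, and the part of these cells in the channel differences was not tested.

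The skeletal muscle members formed a separate pattern that followed 2 libraries and not sex. Scn4a, the muscle sodium channel NaV1.4, had 0.0407, 2.86 and 0.196 CPM in female libraries, against 2.08, 0.116 and 0.127 CPM in male libraries. Cacna1s had 1.36, 17.1 and 1.70 CPM in female libraries, against 7.64, 1.34 and 2.35 CPM in male libraries. Cacng1, the gamma subunit of the muscle channel, had 0.136, 3.89 and 0.0523 CPM in female libraries, against 0.831, 0.0996 and 0.0728 CPM in male libraries. For these 3 genes female 2 was the highest library, male 1 the next, and the other 4 lay together well below.

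Cacng6, the close relative of Cacng1 that is also expressed in muscle, had 1.02 CPM in female 2 and 0.422 CPM in male 1 and no read in the other 4 libraries, where up to 3 reads (0.0399 to 0.0543 CPM before scaling) are allowed. Cacnb1, whose protein is the beta subunit of the muscle channel but is made more widely, had 4.04, 5.48 and 3.81 CPM in female libraries, against 5.20, 4.78 and 4.08 CPM in male libraries. Female 2 and male 1 were again the highest of their groups for Cacnb1, but the libraries spread far less than for the other 4. The 17 skeletal muscle markers, among them Acta1, Ckm and Mylpf, summed to 27.9, 1868 and 37.5 CPM in female libraries, against 994.6, 17.8 and 17.2 CPM in male libraries, with Mb at 0 in at least 1 library. The part of muscle RNA in the levels of these channel genes was not tested. With those libraries in, the fitted log2 fold changes had wide errors (0.37 ± 1.72 for Scn4a and 0.82 ± 1.27 for Cacna1s, SE; adjusted p of 0.950 and 0.828, edgeR).

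Female 2 exceeded male 1 by a different factor from gene to gene. The ratio of their CPM was 1.88 for the summed muscle markers (95% interval of counting error 1.86 to 1.9), 1.37 for Scn4a (1.11 to 1.70), 2.23 for Cacna1s (2.02 to 2.47), 2.41 for Cacng6 (1.56 to 3.78) and 4.69 for Cacng1 (3.55 to 6.27). For Cacnb1 the ratio was 1.05 (0.913 to 1.22). The intervals of Scn4a, Cacna1s, Cacng1 and Cacnb1 excluded the ratio of the summed markers, and that of Cacng6 did not. The sum pools 17 markers, and the ratios of single markers were not compared with it. Acta1, 1 of them, had 327.3 CPM in female 2, against 126.1 CPM in male 1. Each library was a single pool, so these intervals describe the 2 libraries and carry no animal-to-animal error.

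**Figure D4:**
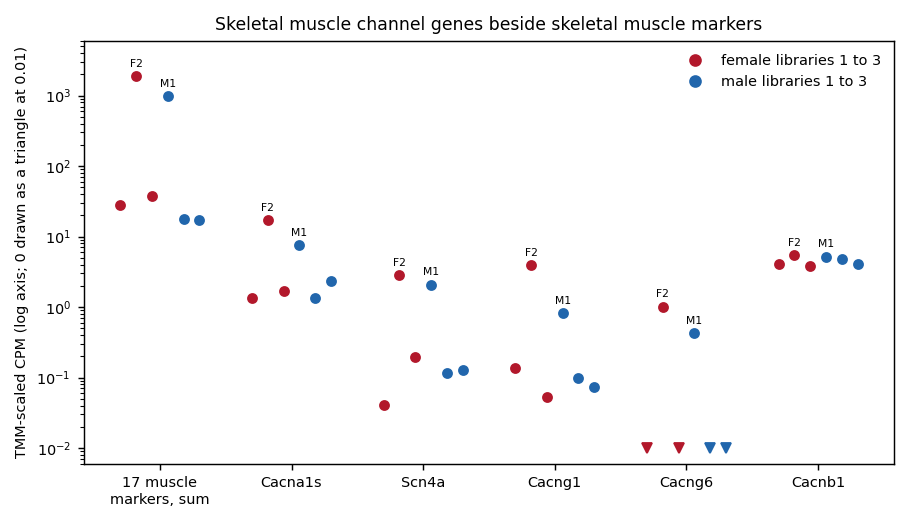
TMM-scaled CPM on a log axis of the summed 17 skeletal muscle markers and of 5 muscle channel genes, with the 3 female libraries left of the 3 male libraries; triangles at the bottom stand for 0 reads, and female 2 (F2) and male 1 (M1) are marked. Both marked libraries exceed the other 4 in the markers, Cacna1s, Scn4a, Cacng1 and Cacng6, while Cacnb1 lies between 3.81 and 5.48 CPM throughout.

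The same libraries differed in which Cacna1s transcript was counted. Transcripts that lack exon 29, whose junction is printed above, took 80.8%, 11.6% and 83.7% of the Cacna1s coding reads in female libraries, against 36.0%, 100.0% and 100.0% in male libraries. The Clopper-Pearson 95% intervals were 9.8% to 13.6% in female 2 and 32.2% to 40.2% in male 1, and the lowest lower bound of the other 4 libraries was 71.9%. The share of estimated reads assigned to transcripts without the exon was thus lowest in the libraries rich in muscle markers. Reads on Cacna1s-204, with the exon, were 0, 1038.4 and 21.1 in female libraries, against 370.7, 0 and 0 in male libraries. Reads on Cacna1s-202, without it, were 80.6, 135.9 and 108.4 in female libraries, against 208.6, 81.0 and 129.0 in male libraries. Salmon divides reads between transcripts by likelihood, so intervals treat estimated reads as counted ones, and the splicing was not tested against sex. Because the transcripts also differ outside exon 29, this division need not rest on reads from that exon, and reads across its junctions were not counted.

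**Figure D5:**
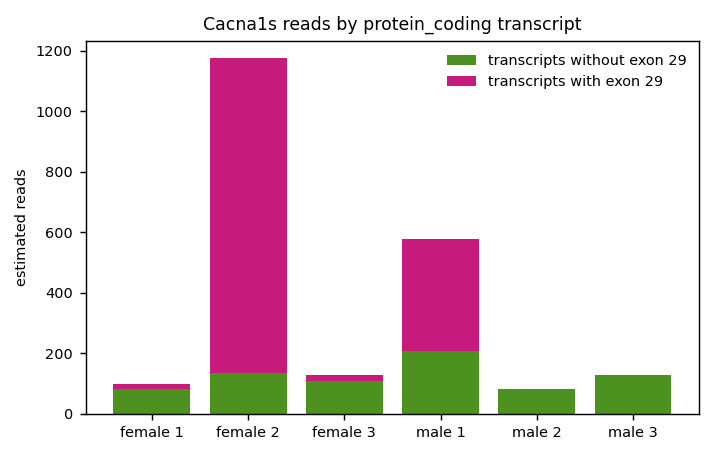
Estimated reads of Cacna1s in each library, split into transcripts without exon 29 (green, lower part of the bar) and with it (magenta, upper part), female libraries left of male libraries. Reads assigned to transcripts with the exon reach 1038.4 in female 2 and 370.7 in male 1, and are at most 21.1 in the other 4.

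Genes that act with these channels were read from 5 lists of 65 genes, of which 60 were tested. None passed an adjusted p of 0.05 in edgeR, and 8 had an unadjusted p under 0.05 (13.7% of all genes tested did). The log2 fold change was below 0 for 32 of the 60, as for 47.2% of all genes tested, and the median was -0.01. The female and male libraries of 7 partners did not overlap with female lower (11.7%, as for all genes tested) and those of 2 with female higher (3.3%, against 8.94% of all genes tested). Limma-voom called 0 partners and DESeq2 called 3 of the 60, all lower in female. DESeq2 called 4.13% of all genes tested, and 3.04% as lower in female. The 3 partners were Gldn, Cbarp and Itpr3, which are named here after their values were seen. Of the 20 sodium channel partners tested, 15 had log2 fold changes below 0 and 0 passed the test; the most abundant was S100a10, which aids NaV1.8 trafficking, at 705 ± 33.7 TPM (SD, n = 6) with a log2 fold change of -0.08. Gldn, the Schwann cell protein gliomedin that gathers sodium channels at nodes, had 344, 343 and 363 CPM in female libraries, against 439, 403 and 409 CPM in male libraries (log2 fold change -0.25 ± 0.08, SE; adjusted p = 0.227, edgeR).

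Of the 11 calcium channel regulators tested, 6 had log2 fold changes below 0 and 0 passed the test. Cbarp, which encodes a binding protein that lowers the number of calcium channels at the membrane, had 0.502, 0.0291 and 0.0785 CPM in female libraries, against 1.12, 1.34 and 1.07 CPM in male libraries. The groups did not overlap, with a log2 fold change of -2.52 ± 0.79 (SE) and an adjusted p of 0.246 (edgeR). Of the 15 other genes of calcium entry, release and removal that were tested, 7 were below 0. Itpr3, an inositol trisphosphate receptor that releases calcium from stores, had 157, 169 and 195 CPM in female libraries, against 237, 214 and 223 CPM in male libraries (log2 fold change -0.37 ± 0.10, SE; adjusted p = 0.187, edgeR). Of the 5 related cation channel genes tested, 2 were below 0 and 0 passed.

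The 9 tested genes of muscle excitation-contraction coupling included 7 with log2 fold changes above 0 and 0 that passed the test. Ryr1, the release channel that CaV1.1 opens in muscle and named after its values were seen, had 2.10, 53.3 and 2.20 CPM in female libraries, against 23.5, 2.29 and 1.95 CPM in male libraries. Atp2a1, the fast-muscle calcium pump, had 2.59, 277.9 and 2.86 CPM in female libraries, against 125.7, 0.299 and 0.346 CPM in male libraries. Both showed the same high libraries as Cacna1s and Scn4a. Without female 2 and male 1, Atp2a1 was the 1 partner gene called (log2 fold change 3.08, adjusted p = 0.0140, edgeR), higher in female. Of all 18905 genes tested there, 6 were called higher and 15 lower in female. In the libraries left, the 17 skeletal muscle markers summed to 27.9 and 37.5 CPM in female, against 17.75 and 17.25 CPM in male. The part of muscle RNA in the Atp2a1 difference was not tested.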

How the data were processed

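Poly(A)-selected, stranded libraries were made from 500 ng of RNA with an RNA integrity number of at least 7.0 and sequenced as paired ends of 100 cycles, per the labels' protocols. Reads went through Trimmomatic 0.39 and Salmon 1.5.2, with MultiQC 1.9 also listed, per the submitters' processing notes; build, annotation release and strand setting: not given in the sources used here. The deposited values are Salmon's estimated counts (expected counts) per transcript and TPM, which the authors' files give for each library, with the effective length of each transcript. Transcript names and biotypes come from the file headers' identifiers.

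Estimated counts and TPM were summed per gene over protein_coding transcripts (over all transcripts where a gene has none), and counts were rounded. Female was tested against male, 3 libraries each, with edgeR 4.0.16 in R 4.3.3 (filterByExpr, TMM, robust quasi-likelihood, no covariate; Benjamini-Hochberg adjustment over all genes tested, threshold 0.05), and with DESeq2 1.42.0 and limma 3.58.1 as alternatives, the latter on counts (voom) and on log2(TPM + 1). SE is the log2 fold change divided by the root of F. The coefficient of biological variation was 0.192. The fits were tested on simulated data with known changes. No library pair agreed within sampling noise. Replicates pool different animals, and whether pools were handled on separate days is not stated. Exon coordinates are from GENCODE M21 (GRCm38), whose transcript lengths equal those in the files for the Cacna1s transcripts compared, and promoters are from RefSeq.

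The members, lists and tests were chosen with earlier results of these data known. Per-library values are given for the 3 most abundant tested members of each class, members past the threshold, members whose sexes do not overlap, and the muscle and sensory axon members; partners were to be named if past the threshold or among the most abundant, and others are said to be chosen after their values were seen. The values of some members are not reported here.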

Additional observations from a re-analysis of the deposited data

Results flagged for a closer look

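Reads assigned to transcripts other than protein_coding ones were left out of the comparisons. They made up at least 20% of a gene's reads, with more than 3 such reads in every library, for 2 channel genes. Cacnb2, Cacna2d3 and Cacna2d4 also passed 20% over the 6 libraries (26.77%, 24.77% and 22.09%), but had 3 such reads or fewer in at least 1 library. For Cacna1d, the L-type channel CaV1.3, such transcripts took 50.06% of the reads over the 6 libraries: 52.8%, 45.3% and 45.1% in female libraries, against 59.8%, 52.7% and 47.2% in male libraries. The sexes overlapped. For Cacna1e, the R-type channel, they took 29.12%: 29.4%, 30.5% and 36.4% in female libraries, against 39.8%, 15.5% and 25.4% in male libraries, from 10.1 to 27.3 reads a library. Counting all transcripts of a gene left the number of channel genes called at 0.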

How the results depend on the processing

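The number of genes called was 20, and was 155 with no low-count filter, 781 with DESeq2, 11 with limma on log2(TPM + 1), 8 with a muscle marker covariate, 4 with the replicate block and 4 to 148 with 1 library left out (148 without female 3). Replicate numbers did not pair the libraries (correlations of same-numbered deviations -0.13, -0.238 and 0.048); the replicate block left channel genes called at 0, with a median log2 fold change of -0.08. Channel genes called were 0, and 4 with DESeq2 and 0 to 2 with 1 library left out (2 without female 3); partner genes called were 0, and 3 with DESeq2 and 1 when female 2 and male 1 were omitted. The median log2 fold change of the tested channel genes was -0.15 to 0.023 with 1 library left out, where the genes that passed the filter changed. Over the 33 channel genes tested with all 6 libraries, this median was -0.157 to 0.0057, and -0.0293 without female 3. Of 22 named genes with a fold change, 12 kept their direction in every one of up to 19 settings. The direction turned in the absence of female 2 and male 1 for Cacna1d (-0.05), Cacna1s (-0.26), Cacna2d3 (-0.025), Cacna2d4 (0.059) and Cacng4 (0.26). With the muscle covariate it turned for Cacna1s (-0.30) and Scn4a (-0.70), and with limma-voom for Scn4a (-0.31). Leaving out 1 library gave -0.15 to 0.0037 for Cacna1c, -1.31 to 1.88 for Cacna1s, -0.065 to 0.45 for Cacna2d3, -0.26 to 0.023 for Cacnb1, -0.13 to 0.46 for Cacng2, -0.92 to 0.11 for Cacng4, -2.72 to 3.07 for Scn4a and -0.22 to 0.80 for Scn9a. These genes were not called in any setting, and the cause was not tested.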
